A study of Homo sapiens with 21 samples.

Results

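Broad H3K4me3 regions were the stretches of at least 3000 bp at which both H3K4me3 libraries of the human renal carcinoma line 786-O held a peak. Overlapping peaks of the 2 deposited H3K4me3 peak lists (18745 and 18601 peaks) merged into 19107 regions, of which 16218 held a peak of both libraries. Of these shared regions, 2217 (13.7%) were 3000 bp or longer and are called broad here, and the other 14001 are called shorter. The 2889 regions found in a single library reached at most 957 bp, so none of them was broad. The series asked how loss of JMJD6, a 2-oxoglutarate-dependent JmjC-domain oxygenase, changed expression in these cells, and where JMJD6 and H3K4me3 lay on chromatin.

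All samples came from 786-O, an established clear cell renal cell carcinoma line that lacks functional VHL. Chromatin immunoprecipitation used JMJD6 wild-type cells: 2 H3K4me3 libraries, both of sequencing batch 2, and 4 JMJD6 libraries, of which numbers 1 and 2 were batch 1 and numbers 3 and 4 batch 2. Input libraries, labelled as matched to each, were not analysed here as files of their own. RNA was sequenced from JMJD6 wild-type cells with the control guide sgCtrl and from JMJD6 knockout cells with guide sg2 or guide sg4, 3 libraries each. The labels name no clone for the knockout cells and do not say that the 3 libraries of a group were separate cultures, so p-values measure the spread between these libraries. The RNA libraries held 14224263 to 16300347 estimated counts.

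H3K4me3 is histone H3 trimethylated at lysine 4, a mark placed by SET1/MLL complexes at the starts of active genes, mostly over unmethylated CpG islands. Most marked starts carry it over the few nucleosomes flanking the start, while some genes carry it over several kilobases into the gene body. Such broad domains are known from studies of other cells to lie over genes of cell identity, over tumour suppressor genes and over strongly transcribed genes.

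The bases just upstream of the start are shown for 4 genes in the widest regions, for B2M, whose broad region held the strongest JMJD6 peaks among those with a named gene, and for ALB, the liver albumin gene, which had no H3K4me3 peak here. They show what the DNA under the mark looks like: capitals mark CG dinucleotides, the motif searched, which reads the same on both strands. Each run is the 250 bases before the start, 5′ to 3′ on the gene's strand, from RefSeq on GRCh38.p14; the 4 genes are those of the widest regions with a single promoter in that table.
HOXA9: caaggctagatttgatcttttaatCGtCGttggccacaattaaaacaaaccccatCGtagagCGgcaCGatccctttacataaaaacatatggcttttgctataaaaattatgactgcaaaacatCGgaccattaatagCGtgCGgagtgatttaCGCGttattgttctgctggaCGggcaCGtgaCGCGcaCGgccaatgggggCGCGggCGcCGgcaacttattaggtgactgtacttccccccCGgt
SLC7A5: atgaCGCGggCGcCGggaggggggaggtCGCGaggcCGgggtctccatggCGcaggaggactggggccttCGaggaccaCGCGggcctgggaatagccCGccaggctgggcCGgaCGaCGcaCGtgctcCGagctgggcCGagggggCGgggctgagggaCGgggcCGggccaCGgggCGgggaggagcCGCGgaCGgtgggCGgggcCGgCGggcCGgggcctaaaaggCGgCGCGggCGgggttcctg
IRS2: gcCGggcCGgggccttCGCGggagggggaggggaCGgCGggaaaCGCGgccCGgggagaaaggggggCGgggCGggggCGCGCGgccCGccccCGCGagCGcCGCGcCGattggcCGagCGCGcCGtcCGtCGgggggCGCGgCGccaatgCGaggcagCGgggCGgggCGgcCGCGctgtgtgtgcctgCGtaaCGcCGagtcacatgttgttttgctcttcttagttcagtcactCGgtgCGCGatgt
UGCG: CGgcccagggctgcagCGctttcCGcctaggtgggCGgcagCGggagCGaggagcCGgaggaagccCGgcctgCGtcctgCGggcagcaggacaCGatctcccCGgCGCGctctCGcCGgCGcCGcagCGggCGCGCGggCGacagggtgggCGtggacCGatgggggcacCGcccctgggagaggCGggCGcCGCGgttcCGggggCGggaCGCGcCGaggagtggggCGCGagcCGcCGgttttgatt
B2M: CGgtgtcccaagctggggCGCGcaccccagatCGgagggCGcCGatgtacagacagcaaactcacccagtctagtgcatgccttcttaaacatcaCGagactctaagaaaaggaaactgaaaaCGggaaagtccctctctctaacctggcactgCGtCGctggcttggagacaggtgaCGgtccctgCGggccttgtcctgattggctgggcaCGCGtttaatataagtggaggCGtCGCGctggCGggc
ALB: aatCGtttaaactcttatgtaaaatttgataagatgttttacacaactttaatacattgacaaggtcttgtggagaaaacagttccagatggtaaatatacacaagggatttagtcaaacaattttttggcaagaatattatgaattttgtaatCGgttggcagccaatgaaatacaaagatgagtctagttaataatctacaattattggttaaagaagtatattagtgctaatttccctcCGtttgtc
The CG count was 42 at IRS2, 39 at UGCG, 34 at SLC7A5, 20 at HOXA9, 18 at B2M and 3 at ALB. Over the 22114 genes with a single promoter in the table the median was 9 (quartiles 2 and 22), and 93.1% held at least 1 CG. HOXA9, in the widest region of all, therefore had fewer CG than UGCG or IRS2. Only 128 of the 168 genes placed in broad regions had a promoter in the table, too few for a comparison of the set.

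The merged widths of the broad regions fell off steeply. Their median was 3558 bp (quartiles 3226 and 4098 bp), 1032 were under 3500 bp, 216 reached 5000 bp, 9 reached 10000 bp, and the widest measured 14640 bp. Together they covered 8.55 Mb, 27.9% of the 30.7 Mb under shared regions. In 1582 of the 2217 (71.4%) each library had a single peak, against 91.9% of the shorter regions, so most broad regions were not made by joining neighbouring peaks. Both libraries covered a median of 92.6% of a broad region's width (66.2% to 99.7%), and 615 of the 2217 fell under 3000 bp when only bases covered by both were counted. Each library alone had 1834 and 1687 peaks of 3000 bp or more.

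Fold enrichment, the peak caller's own ratio of signal to background for each peak, was higher in broad than in shorter regions. The highest fold in a region had a median of 80.7 in library 1 and 88.1 in library 2 for broad regions, and of 48.9 and 51.6 for shorter ones. The regions were chosen by the width of these same peaks, so the folds are a description and carry no test. The mean of both libraries lay above the shorter regions' median in 2002 of 2217 broad regions. Most of the rise with width lay under 3 kb. The median fold in library 1 was 8.52 under 1 kb, 53.0 from 1 to 2 kb, 75.4 from 2 to 3 kb, 80.8 from 3 to 4 kb, 80.0 from 4 to 5 kb and 80.5 at 5 kb and over. In library 2 it was 81.0 from 2 to 3 kb, 87.8 from 3 to 4 kb, 86.5 from 4 to 5 kb and 92.9 at 5 kb and over. Spearman's rho of width with fold was 0.767 over the 14001 shorter regions and 0.02 over the 2217 broad ones, where the fold was the mean of both libraries. Pearson's r of the log2 fold between libraries 1 and 2 was 0.70 over broad and 0.95 over shorter regions, where the points are regions that share the same 2 libraries. The folds had a narrower range in broad regions (library 1 quartiles 62.7 and 98.0) than in shorter ones (14.9 and 77.1). Because r depends on that range, the 2 values do not compare how well the libraries matched. The 296 regions up to 0.1 kb short of the threshold had median folds of 77.7 and 85.0, and the 273 regions less than 0.1 kb above it had 78.8 and 86.3.

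**Figure D1:**
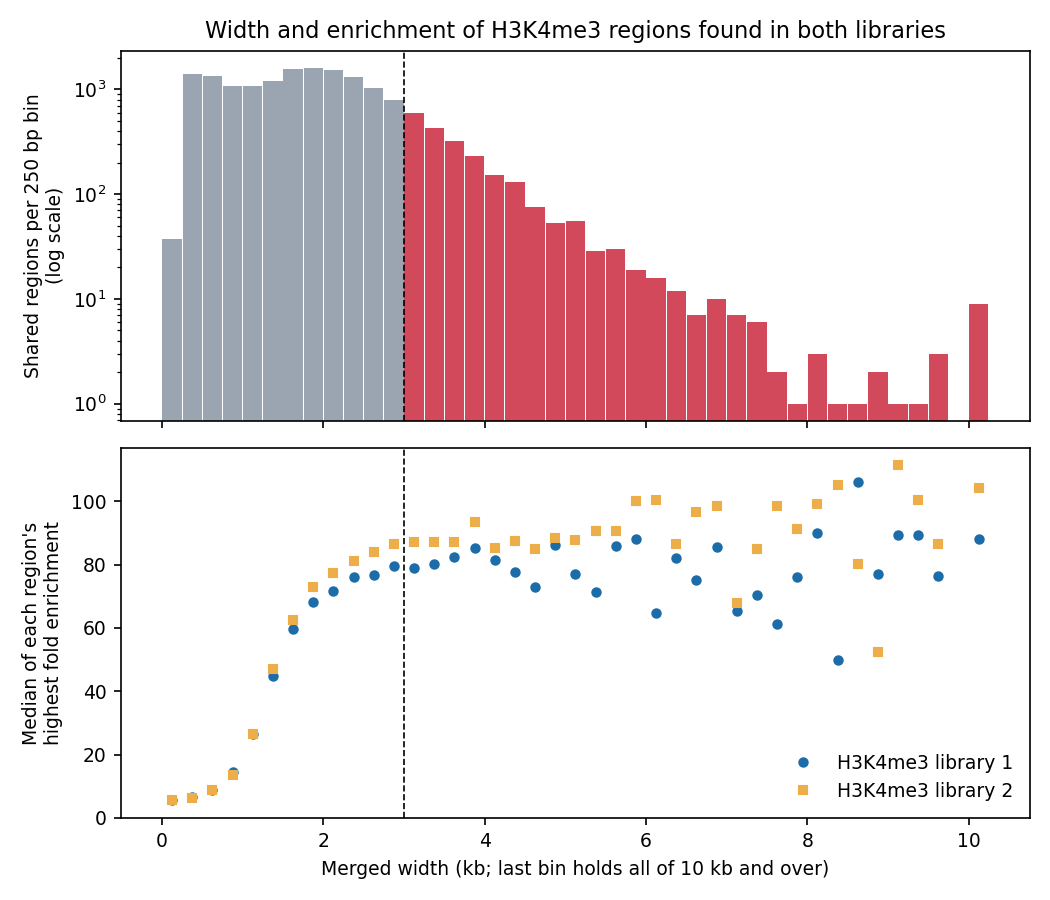
Number of shared H3K4me3 regions per 250 bp of merged width (top, log scale, broad regions in red) and the median of the highest fold enrichment in each library (bottom); the dashed line is at 3 kb. The number falls from about 2 kb on, and the fold rises steeply up to about that width and less beyond it.

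The 20 widest regions ran from 8112 to 14640 bp, and 18 of them held the start of a gene with a known position. The widest, chr7:27200230-27214869 (hg19 here and below), covered the starts of HOXA9 and HOXA10, homeobox transcription factors of body patterning, with folds of 116 and 122 in libraries 1 and 2. Next came SLC7A5, a large neutral amino acid transporter (chr16:87889249-87903160, 13912 bp, folds 109 and 87.4), and IRS2, an adaptor of insulin and IGF1 signalling (chr13:110425644-110439008, 13365 bp, 84.0 and 88.4). Genes of metabolism and transport were UGCG, which makes glucosylceramide (11877 bp), and SLC2A1, the glucose transporter GLUT1 (9512 bp). Transcription factors were the glucocorticoid receptor NR3C1 (11061 bp), ZNF608 (8853 bp), RUNX1 (8744 bp), NR2F2 (8455 bp) and TGIF1 (8247 bp). NDRG1, a hypoxia-responsive gene (10437 bp), NFKBIZ, an inhibitor-type regulator of NF-kappaB (10330 bp), ERRFI1, a feedback inhibitor of EGFR (9563 bp), TSC22D2 (9087 bp) and TPM1, a tropomyosin (8112 bp), were further coding genes. The nuclear RNAs MALAT1 (9578 bp) and NEAT1 (9481 bp) had a region each.

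No gene is named for chr22:46467137-46479094, 11958 bp long with folds of 72.9 and 114. The region chr7:27149972-27158871 (8900 bp) lay in the HOXA cluster, with the start of HOXA3 just outside it. Of these 20 regions, 13 were a single peak in library 1 and 11 in library 2, and both libraries covered 87.8% to 99.7% of their width. Their folds ran from 49.9 to 116 in library 1 and from 39.2 to 122 in library 2. NR2F2 (49.9 and 105) and ZNF608 (74.4 and 39.2) had the largest ratios between libraries among the 20.

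**Figure D2:**
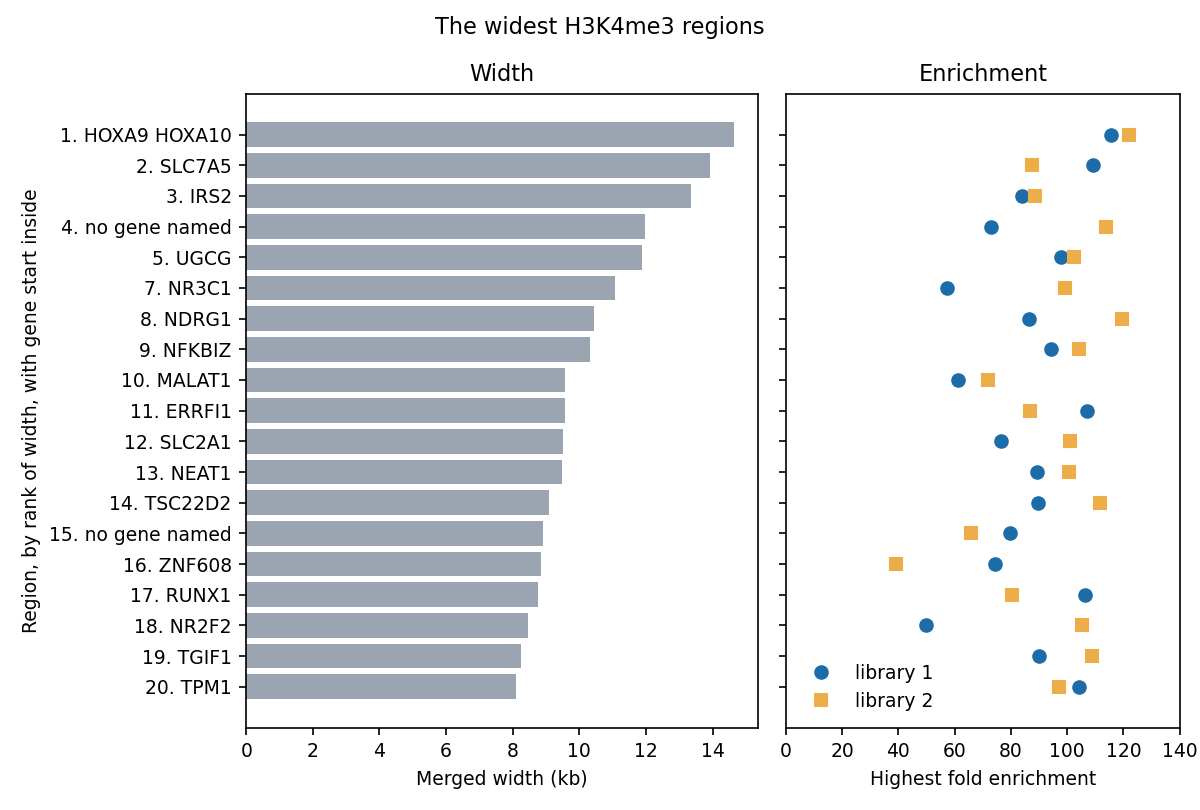
Merged width (left, kb) and highest fold enrichment in each H3K4me3 library (right, circles library 1, squares library 2) of 19 of the 20 widest regions, labelled by rank and by the gene starts inside. Width falls from 14.64 to 8.112 kb with no matching order of the fold.

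Gene starts were placed from hg19 positions known for 197 genes, each on the chromosome that RefSeq (GRCh38.p14) gives it. The strand could be checked for 150 of them and was the same for all 150. Of 174 neighbouring pairs of positions, 172 stood in the same order in RefSeq. Of the starts, 168 lay in 161 of the 2217 broad regions, so most members remain without a named gene. Many of these genes were taken up because a wide region lay there, so no share is given over them. The lists below were also drawn up with earlier results of these data known, and their counts are a description. Of 22 immediate early genes, which respond within minutes to growth factors, 16 started in a broad region, among them FOSL2 (6722 bp), MYC (6638 bp), BTG1 (6220 bp) and JUN (5153 bp). FOS, IER2, KLF2, KLF4 and BTG2 started in shorter regions, FOS in one of 2954 bp, and JUND started in a gap beside a broad region. Of 20 hypoxia and renal carcinoma genes, 13 started in broad regions, including TGFA, an EGFR ligand (6659 bp), EGLN3, a HIF prolyl hydroxylase (6636 bp), VEGFA (6461 bp), EPAS1, which encodes HIF2-alpha (4216 bp), and PAX8, a renal lineage factor (3815 bp). VHL itself was in a shorter region of 1868 bp, and CA9 had none. Of 10 housekeeping genes 7 were broad, among them GAPDH (4627 bp) and ACTB (3834 bp), so broad marks were not limited to inducible or lineage genes. None of 9 genes of other lineages, among them ALB, INS, MYOD1 and GFAP, started in a shared region. JMJD6's own start was in a broad region of 3454 bp, with folds of 88.7 and 106 and a JMJD6 peak in 1 library; that of DGAT1, the triglyceride-forming enzyme named in the series' title, was in a shorter region of 2215 bp with a JMJD6 peak in all 4.

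The homeobox clusters differed in how much broad mark they held. The HOXA cluster had 8 broad among 13 shared regions, 47.8 kb in all. HOXB had 6 of 12 (26.1 kb), HOXC 2 of 8 (8.21 kb) and HOXD 1 of 10 (4.41 kb). No broad region of the 4 clusters held a JMJD6 peak.

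Broad regions lay on every assembled chromosome, and their share among shared regions varied. It was lowest on chromosome 19, at 7.40% (85 of 1149, exact Clopper-Pearson 95% interval 5.95% to 9.07%), and on X, at 9.06% (47 of 519, 6.73% to 11.9%). It was 17.8% on chromosome 8 (104 of 584, 14.8% to 21.2%) and 18.3% on chromosome 18 (46 of 252, 13.7% to 23.6%). The intervals of chromosomes 15, 19, 22 and X lay under the share of 13.7% over all chromosomes, and those of chromosomes 2, 4, 5, 8 and 18 above it. Such intervals here and below cover counting error only. Another shared region lay within 500 bp of 10.8% of broad and 14.9% of shorter regions, and another broad region within 100000 bp of 26.7% of broad ones.

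**Figure D3:**
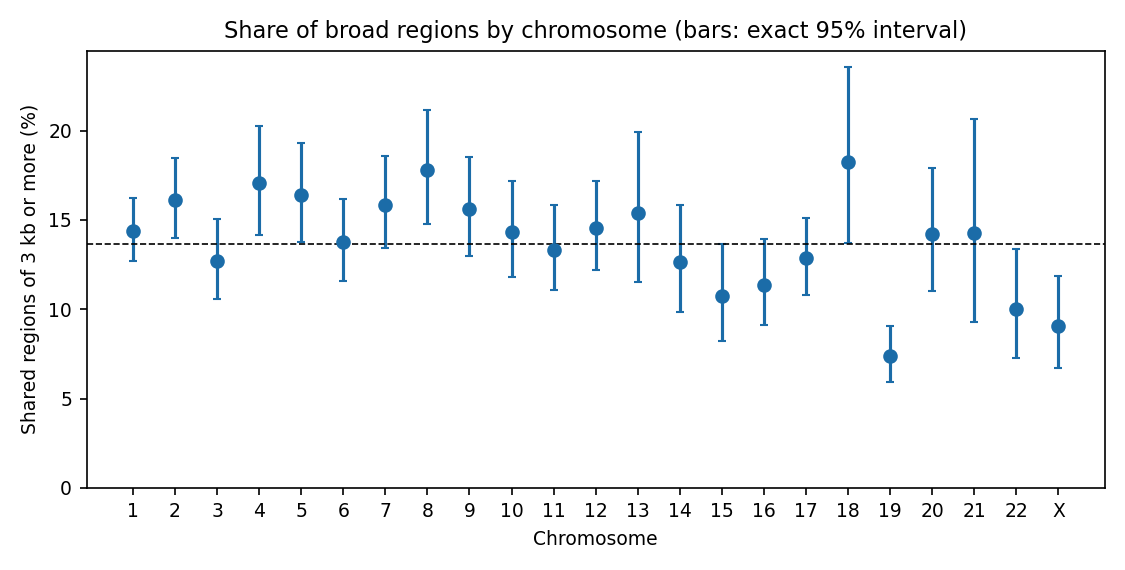
Percent of shared H3K4me3 regions that were broad on each autosome and X, with exact 95% intervals; the dashed line is the share over all regions (13.7%). Chromosome 19 is lowest at 7.40%, and chromosomes 8 and 18 are highest at 17.8% and 18.3%.

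JMJD6 peaks, which the choice of regions did not use, lay in 240 of 2217 broad regions when any of the 4 libraries counted (10.8%, interval 9.56% to 12.2%), and in 957 of 14001 shorter ones (6.84%, 6.42% to 7.27%). In libraries 1, 2, 3 and 4 the share of broad regions with a peak was 6.36%, 8.53%, 6.13% and 7.67%. The share of shorter regions was 4.34%, 5.31%, 4.24% and 5.26% in the same order. Broad regions were higher in each of the 4 libraries, by 2.38 ± 0.596 percentage points (SD, n = 4; exact paired permutation test, 2-sided, p = 0.125, adjusted over 2 tests 0.25). With 4 libraries that test cannot go below 0.125, so the difference cannot pass 0.05 here. It was 2.62 points in batch 1 and 2.15 in batch 2.

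The share was also taken over the same length in both classes. In a window of 1000 bp centred on the strongest H3K4me3 summit, the share with a JMJD6 peak was 3.97%, 5.59%, 3.83% and 5.23% of broad and 4.14%, 5.05%, 4.04% and 5.02% of shorter regions. Broad regions were higher in libraries 2 and 4 and lower in 1 and 3, with a mean difference of 0.0968 ± 0.352 points (SD, n = 4; exact paired permutation test, 2-sided, p = 0.625, adjusted 0.625; batch 1 0.189, batch 2 0.00490). The difference depended on the window: it was -0.487 points at 500 bp, lower in broad regions in 4 of 4 libraries, and 1.36 at 2000 bp, higher in 4 of 4 (exact permutation p = 0.125 for each). Per Mb of region, broad regions with a JMJD6 peak numbered 15.9 to 22.1 over the libraries and shorter ones 26.8 to 33.6. Each region counts once whatever its width, so at an equal share of regions this number is lower for wider ones. Where JMJD6 was present, it sat in the 1000 bp window in 65.0% of the broad regions and in 93.1% of the shorter ones. That window covers more of a shorter region (median width 1644 bp) than of a broad one (3558 bp), so these 2 shares differ by width alone to an unknown degree. The median distance from the JMJD6 summit to the H3K4me3 summit was 519 to 562 bp in broad and 354 to 359 bp in shorter regions, over the libraries; a wider region allows a longer distance.

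JMJD6 peaks were also counted by width. The mean share over the 4 libraries was 1.63% of regions under 1 kb, 5.79% from 1 to 2 kb and 6.22% from 2 to 3 kb. Over whole regions it was 7.31% from 3 to 4 kb, 7.56% from 4 to 5 kb and 5.44% at 5 kb and over. In the window it was 2.02% under 1 kb, 5.71% from 1 to 2 kb, 5.31% from 2 to 3 kb, 5.06% from 3 to 4 kb, 4.45% from 4 to 5 kb and 2.08% at 5 kb and over. Any JMJD6 library had a peak in 18 of the 216 regions of 5 kb and over (8.33%, 5.01% to 12.9%), an interval that includes the shares of the 2 classes below it, 12.0% and 10.9%. None of the 20 widest regions held a JMJD6 peak. Of the regions up to 0.1 kb short of the threshold 23 of 296 (7.77%) had one, and of those less than 0.1 kb above it 38 of 273 (13.9%). Over the whole classes the step was smaller. Any JMJD6 library had a peak in 8.92% of regions from 2 to 3 kb (8.12% to 9.78%) and 10.9% from 3 to 4 kb (9.39% to 12.5%). The step at 3 kb was not tested.

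**Figure D4:**
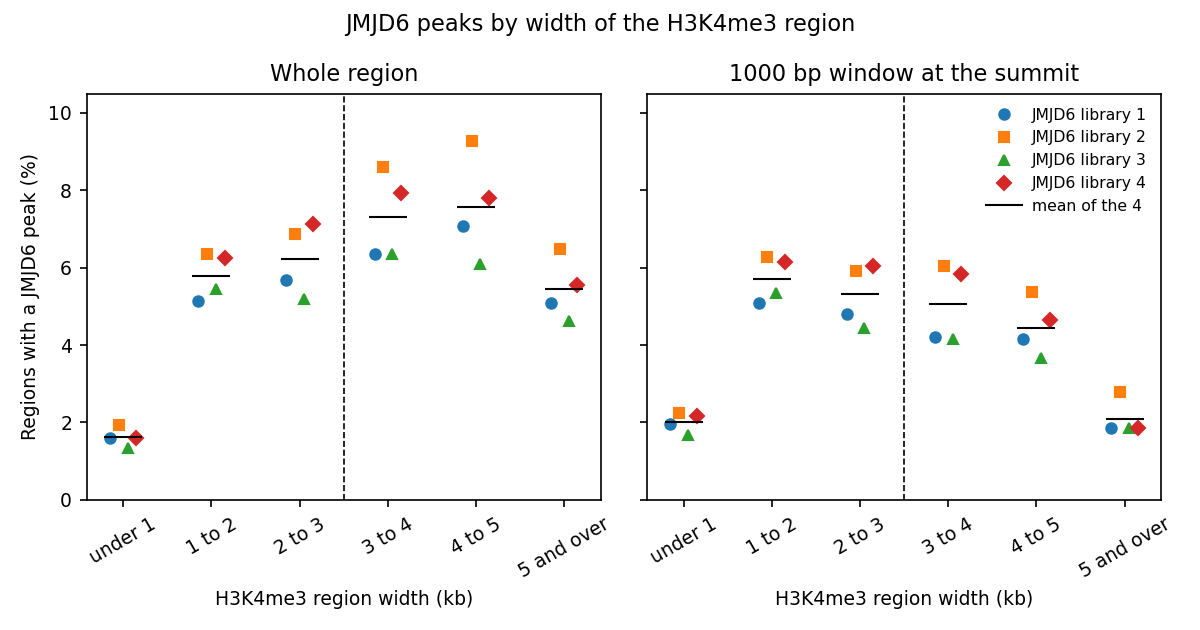
Percent of shared H3K4me3 regions with a JMJD6 peak by region width, over the whole region (left) and in a 1000 bp window at the summit (right); symbols are the 4 JMJD6 libraries, bars their mean and the dashed line 3 kb. The mean over whole regions is highest from 4 to 5 kb at 7.56%, and the mean in the window falls to 2.08% at 5 kb and over.

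All 4 JMJD6 libraries had a peak in 107 broad regions (4.83%, 3.97% to 5.80%) and in 455 shorter ones (3.25%, 2.96% to 3.56%). Those 107 had a median width of 3520 bp, and in 68 of them the peak of every library reached the summit window. Among the 30 with a named gene start, B2M, the light chain of MHC class I, stood far above the rest: its region chr15:45002611-45006203 held JMJD6 peaks of 93.4, 85.7, 96.0 and 95.6 fold in libraries 1 to 4. The strongest of them spanned chr15:45003343-45003941, with its summit 307 bp from the H3K4me3 summit. USP5, a deubiquitinase, followed with 37.4, 47.4, 53.0 and 61.1 fold, and VCP, a AAA ATPase that unfolds ubiquitinated proteins, with 27.0, 50.9, 39.2 and 46.7. PRCC, a gene fused to TFE3 in some renal carcinomas, had 29.3, 28.9, 42.9 and 40.1. The B2M values did not overlap those of any other named region. The widest of the 107 was at CCND1, the cyclin D1 gene (chr11:69452850-69460479, 7630 bp), where JMJD6 folds were 12.5, 11.4, 12.2 and 13.0 and the H3K4me3 folds 38.4 and 107.

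RNA placed the named genes among the strongly expressed ones. Their median level in control cells was 83.8 TPM (a level scaled to transcript length and library), against 20.1 TPM over the 13530 genes tested. SLC7A5 reached 1068, 1116 and 1107 TPM in the 3 control libraries, NDRG1 2044, 1866 and 1927, and TPM1 1406, 1365 and 1426. TSC22D2 was the lowest of those in the 20 widest regions at 28.4, 26.2 and 29.3 TPM, level with ZNF608 at 29.7, 30.2 and 29.5. The cells' identity fitted the label: all 10 renal carcinoma line markers were at 1 TPM or more in the 3 controls (summed 7136 to 7543 TPM). VIM alone held 5279 to 5634 TPM of that sum, and PAX8, the renal lineage factor, 164 to 178 TPM. The lowest of these markers was at 1.72 to 4.19 TPM. The 5 leukocyte markers summed to 0.716 to 0.981 TPM, with PTPRC and CD3E at 0. Endothelial markers summed to 0 to 0.134 TPM, with CDH5 and VWF at 0. Fibroblast markers summed to 9.32 to 30.2 TPM, highest in control 1, and their part in the RNA results was not tested.

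JMJD6 RNA itself was lower in the knockout cells. It stood at 41.5, 40.9 and 44.4 CPM (counts scaled to library size) in the controls, 17.1, 16.0 and 17.3 with sg2, and 11.7, 14.4 and 10.7 with sg4, and the groups did not overlap. The log2 fold change, mean of both guides minus control, was -1.56 ± 0.09 (SE; edgeR quasi-likelihood test, adjusted p = 5.41e-12).

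Among all 13530 genes, 13.9% were called in the knockout cells, 6.92% higher and 6.95% lower. Of the 167 tested genes that started in broad regions, 21 were higher and 28 lower (29.3% in all). JMJD6, the knocked-out gene, is counted among the 28. Level moved with this count: among genes at 100 TPM or more in controls, 33 of 77 at broad regions were called (42.9%; 17 higher, 16 lower), and 29.6% of all 1782 such genes (378 higher, 149 lower). Transcripts of the named genes were also longer, with a median of 3682 bp against 2991 bp. The part of level and length in the count was not tested, nor was the choice of genes by known position. Fewer genes at broad regions were called without control 1 (28 genes) or control 3 (32 genes). The calls over all genes also moved with the libraries used. Without sg2 library 1, 39 genes at broad regions and 10.1% of all genes were called. Without sg2 library 3 these were 46 genes and 13.7%. Whether the lower counts were particular to genes at broad regions was not tested. Of 16 named genes that started in shorter regions 5 were higher (ANGPTL4, AXL, NNMT, HPRT1 and RPLP0) and 3 lower (FOS, BTG2 and DGAT1). NNMT also had a broad region within 1000 bp of its start. The difference between genes of shorter and of broad regions was not tested.

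Of the 19 genes in the 20 widest regions, 7 fell and 0 rose by edgeR. At an unadjusted p under 0.05, 9 were lower and 0 higher, and DESeq2 called 8 lower and 0 higher. Over all genes tested, edgeR called 6.95% lower and 6.92% higher. The 19 had a median control level of 137 TPM. Among all 1782 genes at 100 TPM or more, 149 were called lower and 378 higher. The part of level in the count of the 19 was not tested. NEAT1, the RNA scaffold of paraspeckles, fell by 0.71 ± 0.11 on the log2 scale (SE; edgeR, adjusted p = 0.000110). Its controls were at 687, 424 and 646 CPM, sg2 at 389, 288 and 331 and sg4 at 311, 474 and 366; the sg4 library at 474 overlapped the lowest control. NDRG1 fell by 0.38 ± 0.06 (adjusted p = 0.000276), from 3019, 2790 and 2767 CPM in controls to 2225, 1982 and 2688 with sg2 and 1885, 2109 and 2314 with sg4. IRS2 fell by 0.30 ± 0.05 (adjusted p = 0.000147), from 1021, 1026 and 972 CPM to 833, 770 and 890 with sg2 and 738, 839 and 822 with sg4. Every knockout library of NDRG1 and IRS2 was under every control. ZNF608 (log2 change -0.28), NFKBIZ (-0.28), ERRFI1 (-0.21) and SLC2A1 (-0.16) also fell. SLC2A1 was near the limit (adjusted p = 0.0427) and lost its call with sg2 alone (adjusted p = 0.115), with sg4 alone (0.0896), and without control 1 or 2, sg2 library 1 or 2, or sg4 library 1 or 2 (0.0653 to 0.221). ERRFI1 lost it with sg2 alone (edgeR adjusted p = 0.211) and without control 1 (0.0514). NFKBIZ lost it with sg4 alone (edgeR adjusted p = 0.0820) and without control 1 (0.0540) or control 3 (0.0703). HOXA9, in the widest region, had a log2 change of -0.01 ± 0.06 (SE, adjusted p = 0.929), and SLC7A5 one of -0.10 ± 0.04 (adjusted p = 0.0663).

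**Figure D5:**
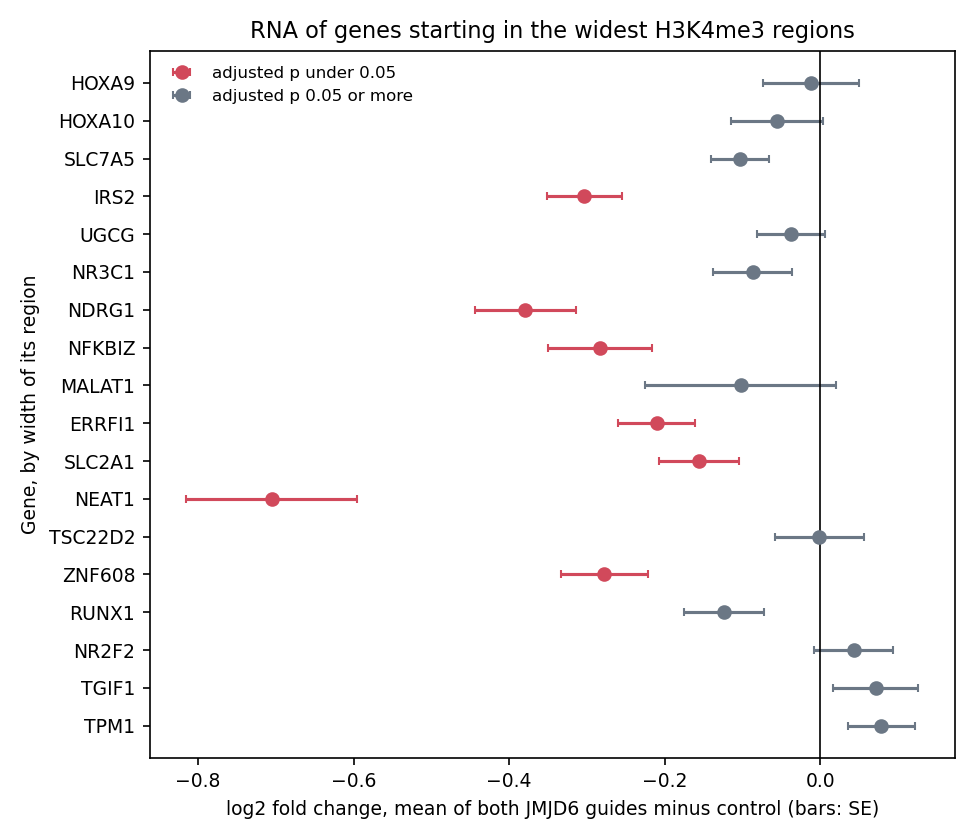
log2 fold change of RNA (mean of both JMJD6 guides minus control, with SE) for 18 of the 19 genes that start in the 20 widest H3K4me3 regions, ordered by width; red marks an adjusted p under 0.05. The 7 red genes all lie under 0, from SLC2A1 at -0.16 to NEAT1 at -0.71.

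Of 13 hypoxia and renal carcinoma genes in broad regions, 6 fell and 0 rose by edgeR (6 and 0 at an unadjusted p under 0.05, 5 and 0 by DESeq2), among them NDRG1, SLC2A1, VEGFA, EGLN3 and TGFA. Of all genes tested 6.95% were called lower, and the 13 had a median control level of 316 TPM. Of all 1782 genes at 100 TPM or more, 149 were called lower and 378 higher (29.6% in either direction). EGLN3 went from 143, 154 and 144 CPM in controls to 113, 110 and 126 with sg2 and 112, 118 and 125 with sg4 (log2 change -0.32 ± 0.05 SE, edgeR adjusted p = 0.000267). TGFA (-0.28) was likewise under every control in all 6 knockout libraries. EPAS1 (0.01 ± 0.04, adjusted p = 0.909), HIF1A (-0.07 ± 0.07, 0.572) and PAX8 (-0.07 ± 0.06, 0.500) did not pass. Of the 7 listed genes outside broad regions, the 3 called were higher: ANGPTL4 (0.38), an inhibitor of lipoprotein lipase, AXL (0.18), a receptor tyrosine kinase, and NNMT (0.19), a nicotinamide methyltransferase. The start of NNMT lay in a shorter region of 738 bp, with a broad region within 1000 bp of it.

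HSPE1, the mitochondrial co-chaperonin HSP10, was among the largest rises at broad regions and stood at 56.1, 66.9 and 45.1 CPM in controls, 83.0, 70.3 and 73.1 with sg2 and 75.8, 93.9 and 88.5 with sg4 (log2 change 0.52 ± 0.09 SE, edgeR adjusted p = 0.000264). CKS2, a subunit of cyclin-dependent kinases, was at 78.2, 67.2 and 58.6 CPM in controls, 85.1, 93.4 and 86.8 with sg2 and 96.4, 91.8 and 94.0 with sg4 (0.42 ± 0.07, adjusted p = 0.000170). In both genes every knockout library exceeded every control. HSPA8, a cytosolic HSP70 (0.40), and PSMB3, a proteasome subunit (0.29), rose as well. Near-identical pseudogene copies of HSPE1, CKS2 and HSPA8 exist, and how the deposited counts were split with them is uncertain. SEMA6A, a transmembrane semaphorin, fell by 0.44 ± 0.05 (adjusted p = 2.65e-06), from 117, 123 and 129 CPM to 82.1 to 100.0 CPM. CPEB2, a regulator of translation, fell by 0.29.

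Immediate early genes in broad regions moved both ways. Of 16, FOSB (log2 change -0.74), EGR1 (-0.38) and ZFP36 (-0.22) fell, and MYC (0.20), FOSL1 (0.21) and KLF10 (0.19) rose. Over all genes tested, 6.95% were called lower and 6.92% higher, and the 16 had a median control level of 146 TPM. Housekeeping genes PGK1 (0.20), TUBA1B (0.26) and PPIA (0.15) rose among 7 in broad regions, with 0 lower (3 and 0 at an unadjusted p under 0.05 and by DESeq2), while ACTB and GAPDH did not pass. Their median control level was 2373 TPM, and of all 1782 genes at 100 TPM or more 378 were called higher and 149 lower. Outside broad regions, 2 of the 3 listed housekeeping genes also rose and 0 fell. Of the 5 HOX genes that started in broad regions none was called by edgeR or DESeq2, and 0 had an unadjusted p under 0.05. HOXA3, whose start lay just outside the broad region of 8900 bp, fell by 0.36 ± 0.06 on the log2 scale (SE; edgeR adjusted p = 0.000265), with all 6 knockout libraries under every control.

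Broad regions with JMJD6 peaks in all 4 libraries held 31 tested genes: 3 rose (CKS2, SERBP1 at 0.16 and CDCA8 at 0.20) and 0 fell by edgeR, 9.68% called against 13.9% of all genes. At an unadjusted p under 0.05, 4 were higher and 2 lower, and DESeq2 called 4 higher and 0 lower. B2M, with the strongest JMJD6 peaks among the broad regions with a named gene, had a log2 change of -0.03 ± 0.04 (SE, edgeR adjusted p = 0.766), from 3160, 3178 and 3071 TPM in controls. USP5 (-0.08 ± 0.05), VCP (0.07 ± 0.06) and PRCC (-0.06 ± 0.05) did not pass either. Among the 125 tested genes of broad regions with no JMJD6 peak, 17 rose and 25 fell; the difference between these groups of genes was not tested. In edgeR's test of sg4 against sg2, 8 of 13530 genes were called and 0 of those at broad regions (31 at an unadjusted p under 0.05).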

How the data were processed

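The authors deposited peak lists per library, not pooled, with a fold enrichment (a ratio), −log10 p and −log10 q per peak, and per-transcript tables with estimated counts and TPM. Per the submitters' processing notes, the builds were hg19 and GRCh37 and the tools included STAR 2.5.2b, MACS2 2.1.2, SAMtools, bedtools 2.26 and Salmon; settings and the annotation are not given in the sources used here, and strand use in counting is not stated. H3K4me3 peaks sharing at least 1 bp were merged in Python 3.11.15 (pandas 2.3.3), and a JMJD6 peak counted when it shared at least 1 bp with a region or window. Shares have exact Clopper-Pearson 95% intervals, and libraries were compared with an exact paired permutation test. Estimated counts were rounded and summed per RefSeq symbol (1.33% to 1.65% of counts matched none), then fitted over all 9 libraries with edgeR 4.0.16 (R 4.3.3; TMM, filterByExpr, quasi-likelihood, Benjamini-Hochberg over all genes, called under 0.05). DESeq2 1.42.0 was an alternative. The gene fit and the peak code were tested on simulated data. The members, gene lists and known positions were chosen with earlier results of these data known. No hg19 annotation was at hand, so gene starts are positions known from general knowledge, kept where sure; many were looked up at the widest regions. Genes were named at the 20 widest regions, at broad regions with JMJD6 in all 4 libraries, for up to 15 largest calls and up to 5 of each list. Replicate numbers were not used to pair libraries, since same-numbered libraries did not deviate together (9 pairs, r -0.14 to 0.05). A few members of the lists and marker sets are counted but not reported here.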

Additional observations from a re-analysis of the deposited data

Results flagged for a closer look

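Of 17 groups of 4 JMJD6 library values checked for a library far from the others, 1 was marked: the median distance from JMJD6 to H3K4me3 summits in broad regions was 519 bp in library 4, against 556, 562 and 560 bp in libraries 1, 2 and 3. Chance marks about 1 in 20 such groups, and this was 1 of 17.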

How the results depend on the processing

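The count of broad regions (2217) depends on the length asked for: 6891 at 2000 bp, 626 at 4000 bp and 216 at 5000 bp. It was 1687 to 1834 from a single H3K4me3 library. The median fold of broad minus shorter regions (33.7) was positive in all 10 alternatives: 54.8, 28.3 and 28.6 at those lengths, 28.3 and 27.4 with peaks up to 500 or 1000 bp apart merged, 24.02 with a −log10 q of at least 10, and 43.2 to 46.7 from a single library. The JMJD6 excess over whole regions stayed positive in all 17 alternatives (0.331 to 2.79 points, exact permutation p 0.125 to 0.5), with 0.331 at 5000 bp. The difference in the window turned negative in 9 of 19: -0.977 at 4000 bp, -2.52 at 5000 bp, -0.0204 with 1000 bp merging, -0.581 with a −log10 q of at least 10, -0.504 by length covered in both, -0.271 with most of the JMJD6 peak asked to lie inside, and -0.487 in a 500 bp window; leaving out a library gave -0.0521 to 0.438. The cause was not tested.

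The replicate block called 41 genes at broad regions (19 higher, 22 lower), and 1527 of all genes. The numbers do not pair the libraries (9 pairs, none with r over 0.1). Of the named genes' calls, only that of SLC2A1 was lost with the block (adjusted p = 0.0627). Leaving out each RNA library gave 28 to 46 calls at broad regions. The calls over all genes moved as well, with 1389 without sg2 library 1 and 1878 without sg2 library 3. Of 31 named genes under 16 alternatives (496 values), 468 kept direction and call; 14 lost a call (SLC2A1, NFKBIZ and ERRFI1), 2 gained one and 12 changed sign, none of them called: TSC22D2 at 0.00205 by DESeq2, 0.000976 by RLE and 0.00268 with sg2 alone. Without 1 library TSC22D2 ran from -0.0355 to 0.0201, HOXA9 from -0.0522 to 0.0119 and MALAT1 from -0.252 to 0.0701.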
